A study of Mus musculus with 9 samples.

Results

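Elastic fibres are extracellular cables with a core of cross-linked elastin inside a mantle of fibrillin microfibrils, and they give tissues such as arteries, skin and lung their recoil. Secreted tropoelastin is gathered on the cell surface, carried to microfibrils with the help of fibulins and joined covalently by lysyl oxidases. Fibrillin microfibrils also form without elastin, as in periosteum and in the matrix around bone cells, where they hold latent growth factors of the TGF-beta and BMP families. The 10 genes described here encode the core of this system and were chosen by name: elastin (Eln), both fibrillins measured (Fbn1, Fbn2), 4 fibulins (Fbln1, Fbln2, Fbln5, Efemp2), the paired microfibril-associated glycoproteins (Mfap2, Mfap5) and the fibrinogen-related glycoprotein Mfap4. Earlier results of these data were known when they were chosen. All 10 were found among the 40548 genes of the tables, and all 10 passed the filter on low values, a mean over the day 0 and day 7 libraries of at least 1 CPM, the unit that scales the reads of a gene to the total of its library.

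The samples were primary cells released by enzymes from the calvaria, the flat bones of the skull, of C57BL/6 mouse pups (C57BL/6J in the methods) aged postnatal days 2 to 3 per the labels. Day 0 cells had not been differentiated, whereas day 4 and day 7 cells had been kept for that time in mineralization medium, which contained ascorbic acid and β-glycerol phosphate. The labels name no transgene, deletion or drug in any group. Each stage had 3 libraries of total RNA depleted of ribosomal RNA, which makes 9. How many pups went into a library is not given in the sources used here. The culture holds whatever cell types the digestion released, and mineralized cells were lifted with collagenase I before trypsin, so the enzyme treatment and the stage cannot be told apart.

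Reads on genes numbered 7741204 to 14013219 at day 0, 32820610 to 37306090 at day 4 and 10675858 to 15622755 at day 7. The genes Gm42418, Lars2 and Mir6236 together took 17.6% of the reads in day 0 replicate 3 and 11.2% in day 7 replicate 2, against 0.158% to 4.31% in the other libraries, so these libraries stood apart. The 5 osteoblast markers that passed the test, of 6 tested, were all higher at day 7. Summed osteoblast marker RPKM, in which CPM are divided by the length of the gene model, ranged from 1801 to 2515 at day 0, 5586 to 6384 at day 4 and 7976 to 10005 at day 7. Smooth muscle markers, which also mark contractile mesenchymal cells, summed to 1839 to 2123, 1967 to 2114 and 1809 to 1904 RPKM at the 3 stages, and 3 of 5 tested were higher at day 7. The 5 endothelial markers summed to at most 0.459 RPKM in any library, Emcn was at 0 in all 9, and 0 of the 5 passed the filter.

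Promoter sequence was available for 6 of the 10 genes, as 11 windows that run from 250 bases before to 50 bases after an annotated start (RefSeq, GRCm38.p6). Eln, Fbn2, Mfap4 and Mfap5 had no entry. The windows of Fbn1 and Fbln5 are shown because both genes fell through day 4 to day 7, and that of Mfap2 because it is the riser with an entry. Capitals mark the GC box (GGGCGG, or CCGCCC where it lies on the other strand) and, in Fbln5, also the CCAAT box (CCAAT or, on the other strand, ATTGG). The Fbn1 window is chr2:125506389-125506688, the Fbln5 window chr12:101819070-101819369, both on the reverse strand, and the Mfap2 window chr4:141010431-141010730 on the forward strand.
Fbn1: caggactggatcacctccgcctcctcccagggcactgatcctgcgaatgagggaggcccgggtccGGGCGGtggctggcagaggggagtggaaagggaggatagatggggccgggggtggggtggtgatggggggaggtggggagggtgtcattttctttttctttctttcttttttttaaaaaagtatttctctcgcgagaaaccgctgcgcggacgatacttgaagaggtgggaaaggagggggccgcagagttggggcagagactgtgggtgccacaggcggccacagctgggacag
Fbln5: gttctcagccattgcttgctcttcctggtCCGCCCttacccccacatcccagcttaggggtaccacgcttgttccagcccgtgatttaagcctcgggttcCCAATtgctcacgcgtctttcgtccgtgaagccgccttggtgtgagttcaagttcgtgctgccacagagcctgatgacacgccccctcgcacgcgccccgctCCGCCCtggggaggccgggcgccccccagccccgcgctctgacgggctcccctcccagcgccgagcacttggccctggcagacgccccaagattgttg
Mfap2: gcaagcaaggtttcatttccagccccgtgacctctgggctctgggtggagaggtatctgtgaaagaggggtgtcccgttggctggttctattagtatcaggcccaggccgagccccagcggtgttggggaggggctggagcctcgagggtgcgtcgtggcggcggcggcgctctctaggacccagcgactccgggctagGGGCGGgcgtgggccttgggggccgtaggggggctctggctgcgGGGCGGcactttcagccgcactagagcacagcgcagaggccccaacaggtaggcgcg

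A GC box was present in 8 of the 11 windows, against 35.7% of all 32851 promoter windows searched in the same way on both strands. Each of the 6 genes had one in at least 1 window, a count by gene with no share by gene beside it. The windows with it had 60.3% to 78.3% of bases G or C, and those without it 48.7% to 52%. The median of all windows was 52.7%. Whether windows of like G and C content hold the GC box as often was not tested. Positions counted from the start put the GC box at -185 in Fbn1, at -221 and -48 in Fbln5 and at -51 and -7 in Mfap2. CCAAT was present in 2 of the 11 windows, that of Fbln5 at -150 and a second window of Mfap2 at -105, against 37.4% of all windows. GGAATG, the letters read by TEAD factors, was found in 1 window, the second of Mfap2, against 14.7% of all. The TATA box (TATAAA), the AP-1 letters TGANTCA and the RUNX letters TGTGGT were in none of the 11 windows, against 13.6%, 7.81% and 16.8% of all. The windows of a gene can overlap, and the falling Fbn1 and the rising Mfap2 both held the GC box.

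Between day 0 and day 7 the 10 genes did not move one way. Eln and Mfap2 rose, both fibrillins and 3 of the 4 fibulins fell, and Efemp2, Mfap4 and Mfap5 did not pass the test. That made 2 of 10 genes higher, where 12.6% of all 12712 genes tested were higher, and 5 of 10 lower, where 18.6% of all genes tested were lower (limma, p adjusted by Benjamini-Hochberg across the table, threshold 0.05). Calls over all genes were 40.3% in the higher direction with the deposited CPM, which are scaled to library totals. They were 51.8% with median-of-ratios scaling, which moved the median of all genes by 0.10 on the log2 scale. The study's own test used TMM size factors and voomWithQualityWeights, and these gave 51.4% here on reads recovered from the CPM. The 7 calls among the members were made in each of the 19 alternatives, also with both libraries that stood apart left out. The median log2 fold change of the 10 genes was -0.52, against -0.11 over all genes tested.

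Levels over time are drawn in the plot of RPKM by stage. All fold changes between day 0 and day 7 are on the scale of log2(CPM + 0.5). For a single gene an exact permutation test of 3 libraries against 3 cannot go below 0.1, and it gave that value for each of the 7 called genes. The libraries of a stage are described as biological replicates in the study's legends. The sources used here do not say whether these were separate litters or cultures, so p-values speak at most for these libraries. The p-values and standard errors of limma draw mainly on the trend across genes, with 4 residual and 42.9 prior degrees of freedom. They measure the spread of a single gene between its libraries only in small part. In bulk RNA, fewer cells of a type and less RNA per cell cannot be told apart. Day 4 was deposited apart from the other stages and sequenced more deeply, so it is compared by whether libraries overlap, with no test.

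**Figure D1:**
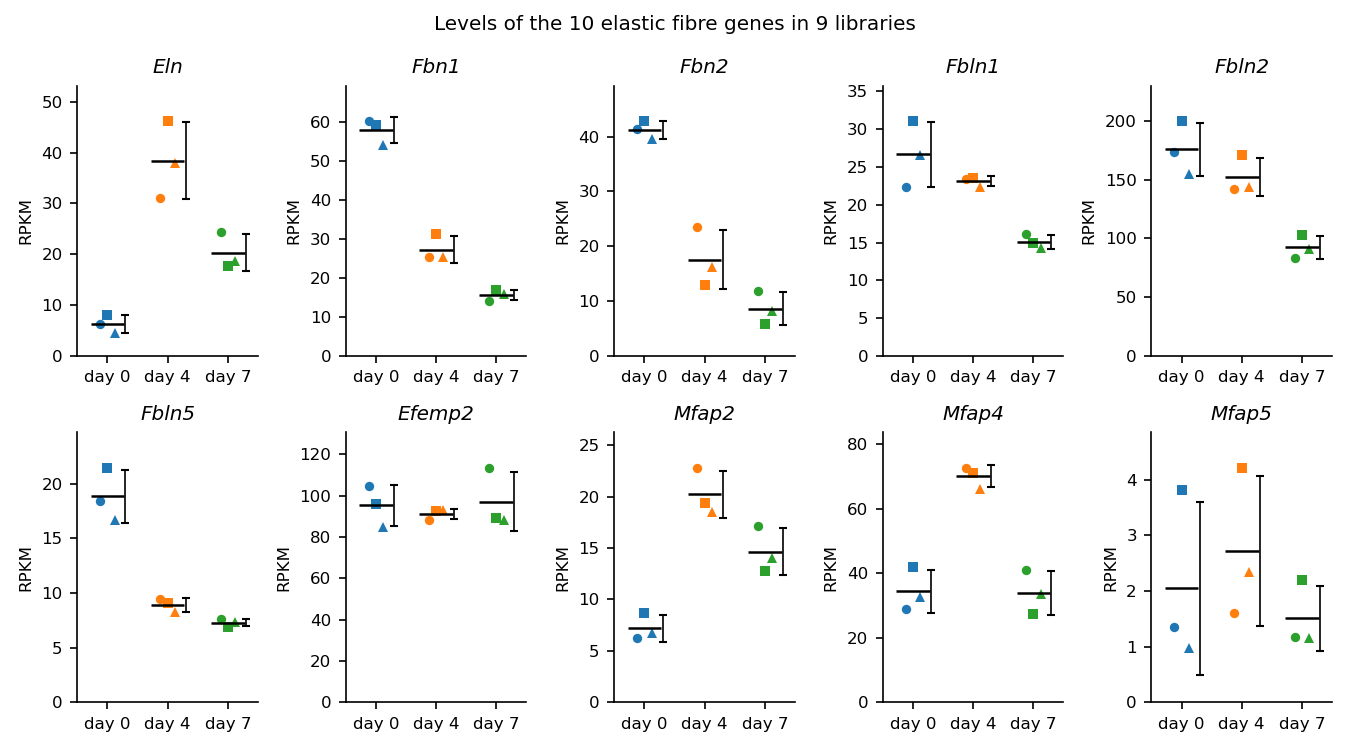
Level in RPKM (vertical axes, each from 0) of the 10 elastic fibre genes at day 0, day 4 and day 7, with circles, squares and triangles for replicates 1, 2 and 3, a line for the mean and a bar for the SD. Eln, Mfap2 and Mfap4 had their 3 highest libraries at day 4, and Fbn1, Fbn2 and Fbln5 fell at each step with no overlap.

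Elastin, the polymer of the core, is encoded by Eln (ENSMUSG00000029675, GRCm38 chromosome 5, 134702593 to 134747323, reverse strand). Its level was 6.27, 8.12 and 4.60 RPKM in day 0 replicates 1, 2 and 3, then 31.0, 46.2 and 38.0 RPKM at day 4 and 24.4, 17.7 and 18.7 RPKM at day 7. Every differentiated library lay above every day 0 library, and every day 4 library above every day 7 library. The mean went from 6.33 ± 1.76 (SD, n = 3) to 38.4 ± 7.58 at day 4, 6.07-fold higher, and to 20.3 ± 3.62 at day 7, which was 1.89-fold below day 4. From day 0 to day 7 Eln rose by a log2 fold change of 1.67 (SE 0.18), or 3.19-fold (limma, adjusted p = 1.62e-10), and its change lay at the 97.1th percentile of all genes tested. The day 0 level rests on 92 to 251 reads per library, the day 4 level on 2634 to 4454. An antisense gene, Gm30003, shares 267 exonic bases with it.

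How high Eln stood against other genes depends on the length used. The deposited RPKM imply an Eln model of 2583 bases, whereas the exons of all its GENCODE M21 transcripts cover 8098 bases, 3.13 times as many. With that length the mean Eln level would be 2.02, 12.2 and 6.47 RPKM at days 0, 4 and 7, while the change over time stays as it is. Fbn1, Fbln1, Mfap2, Mfap4 and Mfap5 had the same length in both, and the lengths of Fbn2, Fbln2, Fbln5 and Efemp2 differed by 1.08 to 1.43 times.

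Fibrillins build the microfibril backbone. Fbn1 (ENSMUSG00000027204, chromosome 2, 125300594 to 125507993, reverse strand) encodes the main fibrillin of postnatal tissue, the protein altered in Marfan syndrome. It measured 60.1, 59.2 and 54.0 RPKM at day 0, 25.3, 31.2 and 25.3 RPKM at day 4 and 14.2, 16.8 and 15.7 RPKM at day 7. No library of a later stage reached one of an earlier stage. The means of the stages were 57.8 ± 3.29, 27.3 ± 3.39 and 15.6 ± 1.32 RPKM (SD, n = 3). The log2 fold change to day 7 was -1.89 (SE 0.15), or 3.71-fold lower (limma, adjusted p = 1.97e-14), and 57.3% of the log2 change in means was reached by day 4. A protein-coding gene on the other strand, Gm9913, shares 2442 exonic bases with Fbn1 and had at most 1.59 CPM.

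Fbn2 (ENSMUSG00000024598) encodes the fibrillin that is made mostly in embryonic and early postnatal tissue. Its values were 41.4, 42.8 and 39.5 RPKM at day 0, 23.5, 13.0 and 16.2 RPKM at day 4 and 11.8, 5.76 and 8.20 RPKM at day 7. The 3 stages did not overlap, although day 4 replicate 2 was only 1.10-fold above day 7 replicate 1. Fbn2 fell further than any other member, by a log2 fold change of -2.32 (SE 0.17), or 4.99-fold (limma, adjusted p = 9.89e-16), among the lowest 0.22% of all genes tested.

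The spread of Fbn2 between replicates widened with differentiation, from a coefficient of variation of 3.99% at day 0 to 30.8% at day 4 and 35.2% at day 7, while that of Fbn1 was 5.69%, 12.4% and 8.49%. At day 4 and at day 7 replicate 1 was highest and replicate 2 lowest. Summed chondrocyte marker RPKM had the same order at both stages, with 170, 53.9 and 83.2 at day 4 and 161, 64.3 and 68.3 at day 7 in replicates 1, 2 and 3. At day 0 the chondrocyte markers ranged from 163 to 468 RPKM, again highest in replicate 1, while Fbn2 differed little. The match was not particular to chondrocyte markers. Tendon and ligament markers summed to 187, 208 and 160 RPKM at day 0 in replicates 1, 2 and 3. Their sums were 188, 159 and 178 RPKM at day 4 and 124, 89.1 and 112 RPKM at day 7. These sums had the replicate order of Fbn2 at day 0, day 4 and day 7. Of the 5 chondrocyte markers 3 were lower and 2 higher at day 7, and the 3 tendon and ligament markers were all lower. The part of chondrocytes and of tendon and ligament cells in the fibrillin levels was not tested.

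Fibulins link tropoelastin to microfibrils, to cells and to the cross-linking enzymes. Fbln1 (ENSMUSG00000006369, chromosome 15, 85205949 to 85286535, forward strand) encodes a fibulin found in elastic fibres and in basement membranes. It had 22.4, 31.0 and 26.6 RPKM at day 0, 23.4, 23.6 and 22.4 RPKM at day 4 and 16.2, 14.9 and 14.3 RPKM at day 7. The day 4 libraries lay within the day 0 range, and all day 7 libraries lay below both. Its log2 fold change to day 7 was -0.81 (SE 0.16), or 1.75-fold lower (limma, adjusted p = 5.76e-05).

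Fbln2 (ENSMUSG00000064080, chromosome 6, 91212455 to 91272540, forward strand), whose product binds both tropoelastin and fibrillin, was the most abundant member per length at day 0. Its level was 173, 200 and 155 RPKM at day 0, 142, 171 and 144 RPKM at day 4 and 83.6, 103 and 90.7 RPKM at day 7. Days 0 and 4 overlapped and day 7 lay below both. With libraries rescaled after leaving out Gm42418, Lars2 and Mir6236, however, all day 4 libraries were below day 0. Fbln2 fell by day 7 with a log2 fold change of -0.93 (SE 0.16), or 1.90-fold (limma, adjusted p = 1.13e-05), and 22.5% of the log2 change in means was reached by day 4.

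Fbln5 (ENSMUSG00000021186, chromosome 12, 101746565 to 101819055, reverse strand) encodes the fibulin that tethers tropoelastin to integrins and to Loxl1. In the 3 day 0 libraries it stood at 18.4, 21.5 and 16.6 RPKM, against 9.41, 9.09 and 8.24 RPKM at day 4 and 7.58, 6.92 and 7.32 RPKM at day 7. The stages did not overlap, and 78.6% of the log2 change in means was reached by day 4. The log2 fold change to day 7 was -1.35 (SE 0.16), or 2.56-fold lower (limma, adjusted p = 8.47e-10).

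Efemp2 (ENSMUSG00000024909, chromosome 19, 5473954 to 5482517, forward strand) encodes the fibulin that brings lysyl oxidase to tropoelastin. It measured 105, 96.2 and 84.6 RPKM at day 0, 88.2, 92.4 and 92.9 RPKM at day 4 and 113, 89.1 and 88.3 RPKM at day 7. All 3 stages overlapped as deposited. The log2 fold change to day 7 was 0.02 with a 95% interval of -0.29 to 0.34 (limma, adjusted p = 0.934), so a change of up to 1.26-fold higher or to 0.816 of the day 0 level lies within the interval, and its sign turned with the libraries rescaled without Gm42418, Lars2 and Mir6236. It shares 173 exonic bases with Mus81 on the other strand, which had at most 33.3 CPM, and whether strand was used in counting is not given in the sources used here.

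**Figure D2:**
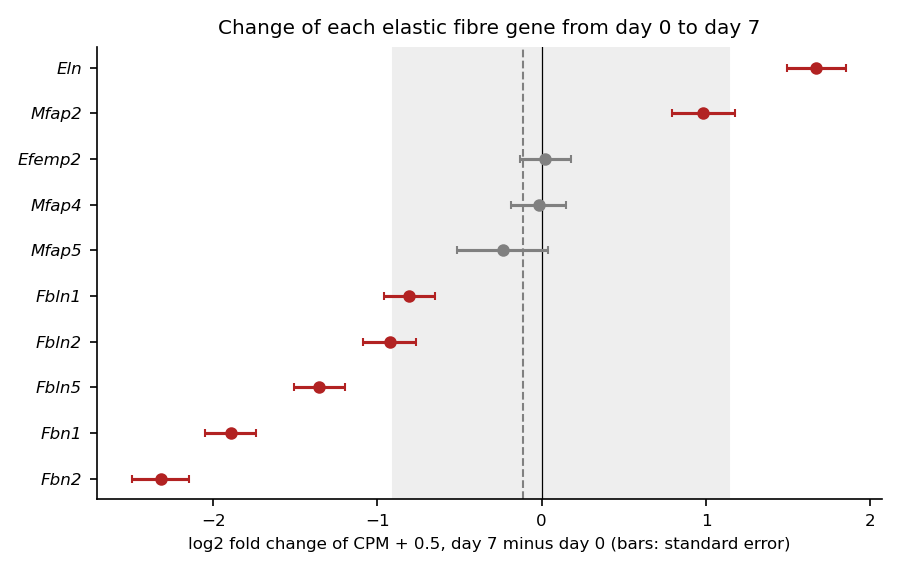
Log2 fold change of CPM + 0.5 from day 0 to day 7 (horizontal axis, bars are standard errors, 3 libraries a stage) for each gene, in red where it passed an adjusted p of 0.05. The grey band spans the 5th to 95th percentile of all genes tested, -0.91 to 1.14, and the dashed line is their median of -0.11; the signs of Efemp2 and Mfap4 turned with other scalings.

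The microfibril-associated glycoproteins are small proteins that sit on fibrillin and bind growth factors or Notch ligands. Mfap2 (ENSMUSG00000060572, chromosome 4, 141010418 to 141015984, forward strand) had 6.24, 8.70 and 6.72 RPKM at day 0, 22.8, 19.4 and 18.5 RPKM at day 4 and 17.2, 12.8 and 14.1 RPKM at day 7. Its libraries peaked at day 4, as those of Eln did, and no stages overlapped. The day 4 mean was 2.80-fold above day 0, and the log2 fold change to day 7 was 0.98 (SE 0.19), or 1.98-fold higher (limma, adjusted p = 5.24e-05). Its short transcript gave 63 to 126 reads per library at day 0.

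Mfap5 (ENSMUSG00000030116, chromosome 6, 122505845 to 122529290, forward strand) was the lowest member at each stage. Its values were 1.35, 3.82 and 0.971 RPKM at day 0, 1.60, 4.22 and 2.35 RPKM at day 4 and 1.18, 2.19 and 1.16 RPKM at day 7. The stages overlapped, and replicate 2 was the highest library at each of them, with a coefficient of variation of 75.5% at day 0. The log2 fold change to day 7 was -0.24 with a 95% interval of -0.79 to 0.32 (limma, SE 0.28, adjusted p = 0.555). That interval draws mainly on the trend across genes, and DESeq2 gave a larger SE of 0.63. Without day 0 replicate 2 the log2 fold change was 0.30. Without both libraries that stood apart it was -0.89, outside the interval (limma, adjusted p = 0.0884).

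Mfap4 (ENSMUSG00000042436, chromosome 11, 61485431 to 61488900, forward strand) encodes a glycoprotein that binds elastin, fibrillin and collagen. It had 28.9, 41.9 and 32.5 RPKM at day 0, 72.7, 71.2 and 66.2 RPKM at day 4 and 40.9, 27.4 and 33.7 RPKM at day 7. All day 4 libraries lay above those of both other stages, which overlapped each other. The day 4 mean was 2.03-fold above day 0 and 2.06-fold above day 7. Its log2 fold change from day 0 to day 7 was -0.02 with a 95% interval of -0.36 to 0.32 (limma, adjusted p = 0.948), a sign that turned with median-of-ratios scaling, so its peak at day 4 is not seen in the comparison of the end points. Mapk7 on the other strand shares 89 exonic bases with it and had at most 50.7 CPM.

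Seen stage by stage, the day 4 libraries of 3 of the 10 genes all lay above day 0 (Eln, Mfap2, Mfap4), where 21.1% of the 12710 genes compared were. For 3 others, Fbn1, Fbn2 and Fbln5, they all lay below, where 22.2% of genes were. From day 4 to day 7, 8 of 10 were lower in every library, all but Efemp2 and Mfap5, where 24.6% of genes were, and 0 were higher in every library, where 13.8% of genes were. The peak at day 4 above both other stages, in Eln, Mfap2 and Mfap4, was met by 7.77% of all genes, and the stepwise fall of Fbn1, Fbn2 and Fbln5 by 4.4%. With libraries rescaled without Gm42418, Lars2 and Mir6236, Fbln2 and Efemp2 were also below day 0 in every day 4 library.

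The order of the members by mean RPKM changed with stage. At day 0 it ran Fbln2, Efemp2, Fbn1, Fbn2, Mfap4, Fbln1, Fbln5, Mfap2, Eln and Mfap5, and the neighbours from Fbn2 to Fbln1, and Mfap2 and Eln, overlapped between libraries. At day 4 Mfap4 followed Fbln2 and Efemp2, and Eln came next, ahead of Fbn1, with which it overlapped. By day 7 Efemp2 and Fbln2 overlapped at the top, Mfap4 and Eln followed without overlap, and Fbn2 stood below Mfap2 and overlapped Fbln5. The places of Eln rest on the shorter gene model given above, and other places also move with the GENCODE lengths. With these, mean Efemp2 would be 67.8 RPKM at day 7, below Fbln2 at 85.3 RPKM. At day 4 Efemp2, at 63.7 RPKM, would stand below Mfap4 at 70.0 RPKM. At day 0 Fbn2, at 32.7 RPKM, would stand below Mfap4 at 34.4 RPKM.

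The 10 genes together summed to 466 ± 46.1, 452 ± 25.7 and 306 ± 21.0 RPKM over the 3 stages (SD, n = 3). Day 7 libraries, at 292 to 330 RPKM, lay below all others. Fibrillins made up 21.3% ± 1.27 of the sum at day 0, 9.94% ± 1.01 at day 4 and 7.88% ± 0.296 at day 7. Elastin went the other way, from 1.34% ± 0.246 to 8.47% ± 1.30 and 6.59% ± 0.724. The 4 fibulins stayed the bulk, with 68.0%, 61.0% and 69.2% of the sum, and Mfap4 held 7.37%, 15.5% and 11.1%. These sums and shares rest on the lengths in the deposited RPKM, which differ from GENCODE most for Eln. The plot of summed levels by library shows the fibrillin segments shrinking at each stage, while the elastin segment was widest at day 4 and narrower again, though above day 0, at day 7.

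**Figure D3:**
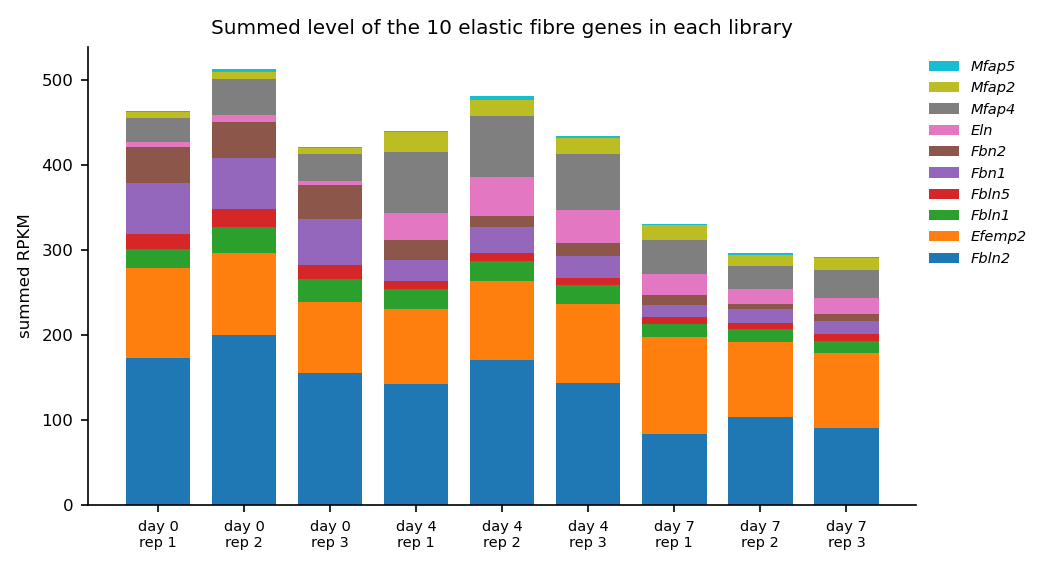
RPKM of the 10 elastic fibre genes stacked in each of the 9 libraries (vertical axis, summed RPKM; 1 colour per gene). Day 7 libraries sum to 292 to 330 RPKM, and Fbln2 and Efemp2 make up the largest segments throughout.

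Ratios within a library do not depend on how libraries are scaled. The 4 compared here had exact two-sided permutation tests and Benjamini-Hochberg adjustment over them. Eln to the summed fibrillins was 0.0618, 0.0797 and 0.0493 in the day 0 libraries, 0.636, 1.05 and 0.915 at day 4 and 0.942, 0.787 and 0.782 at day 7. The differentiated libraries all lay above day 0 and days 4 and 7 overlapped, and the length used for Eln sets the size of the ratio but not its change. From day 0 to day 7 the log2 ratio was higher by 3.74 (SE 0.22), or 13.4-fold (exact permutation p = 0.1, adjusted p = 0.2).

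Fbln5 to Efemp2, the fibulins that bind tropoelastin and lysyl oxidase partners, went from 0.175, 0.223 and 0.197 at day 0 to 0.107, 0.0985 and 0.0888 at day 4 and 0.0669, 0.0778 and 0.0830 at day 7. The ratio was lower at each step without overlap, with a log2 difference of -1.39 (SE 0.14) from day 0 to day 7 (exact permutation p = 0.1, adjusted p = 0.2). Mfap5 to Mfap2 had a log2 difference of -1.27 (SE 0.61) with replicates that overlapped between the stages (exact permutation p = 0.2, adjusted p = 0.267), with replicate 2 highest at each stage.

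Fbn2 to Fbn1 was 0.689, 0.723 and 0.732 at day 0, 0.932, 0.417 and 0.638 at day 4 and 0.832, 0.344 and 0.522 at day 7. The day 0 libraries were close together and the later ones lay on both sides of them. The log2 difference of -0.43 (SE 0.37) had an exact permutation p of 0.4 (adjusted p = 0.4) and ranged from -0.75 without day 7 replicate 1 to -0.12 without day 7 replicate 2.

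**Figure D4:**
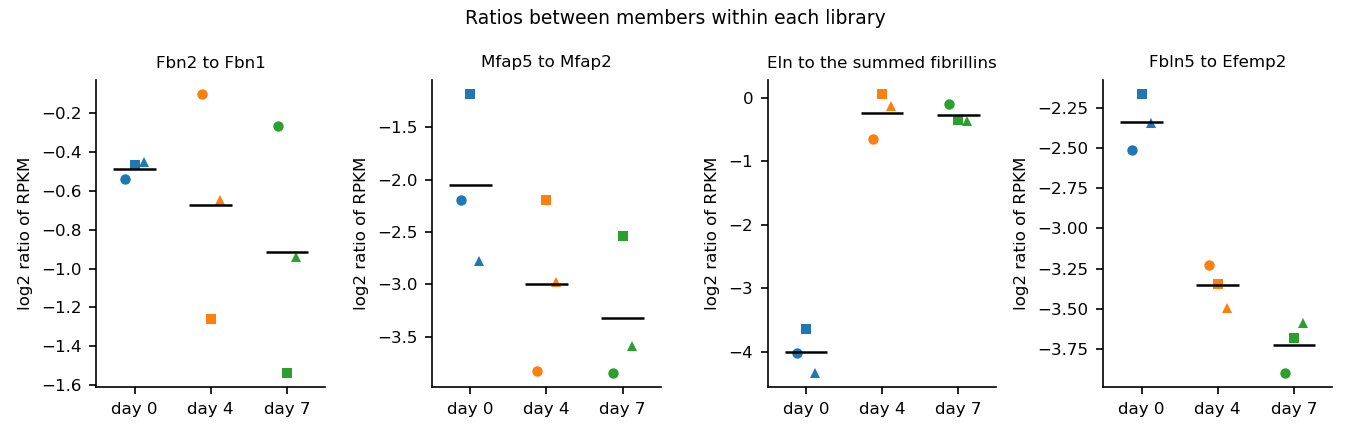
Log2 ratio of RPKM between members within each library (vertical axes, each with its own range), with circles, squares and triangles for replicates 1, 2 and 3 and a line for the mean. Eln to the summed fibrillins separates day 0 from both later stages, whereas the Fbn2 to Fbn1 ratios of day 4 and day 7 spread around those of day 0.

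Around these members, 52 genes that cross-link elastin, bind microfibrils, receive or degrade elastic fibres were looked up. The list was written with earlier results of these data known. Of the 52 genes, 44 passed the filter. At day 7, 12 were higher, 10 lower and 22 did not pass (limma, adjusted over all genes), and their median log2 fold change was -0.05. Over all genes tested 12.6% were higher and 18.6% lower, and the counts by role stand against these shares. With median-of-ratios scaling 17 of the 44 were higher and 8 lower, where 2827 of all 12712 genes tested were higher and 2629 lower. In the lysyl oxidase family, whose enzymes join elastin and collagen chains, 3 of 5 were higher and 1 lower. Loxl4 rose most, from 9.48 ± 2.34 to 76.2 ± 7.24 RPKM with 38.2 ± 4.05 at day 4 (SD, n = 3; log2 fold change 3.02, SE 0.16, limma adjusted p = 6.75e-21). Loxl1, the member tied to elastin through Fbln5, fell as Fbln5 did, from 88.1 ± 0.495 to 72.4 ± 12.3 and 56.0 ± 3.66 RPKM (log2 fold change -0.66, SE 0.15, limma adjusted p = 0.000574). Lox, the founding enzyme, had 340 ± 33.8, 576 ± 73.4 and 461 ± 65.0 RPKM at days 0, 4 and 7 and missed the threshold (log2 fold change 0.43, limma adjusted p = 0.0563), but passed it in 7 of 19 alternatives, among them without day 0 replicate 3 (adjusted p = 0.0427).

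Proteins that regulate microfibrils moved both ways. Of the 4 genes named as latent TGF-beta binding proteins, Ltbp4 (log2 fold change -1.27, SE 0.16) and Ltbp3 (-1.07, SE 0.17) were lower. Ltbp2 (0.27, limma adjusted p = 0.200) and Ltbp1 did not pass. Ltbp2 passed in 4 of 19 alternatives, with an adjusted p of 0.0354 in limma with median-of-ratios scaling, 0.0284 in edgeR, 0.00587 in DESeq2 and 0.0189 with voomWithQualityWeights, and its log2 fold change was 0.10 when day 7 replicate 1 was left out. Among the other fibulins 2 of 4 were lower, the most Hmcn1 (log2 fold change -1.72, SE 0.19, or -0.98 on the RPKM values), and Efemp1 had -0.45 (limma adjusted p = 0.0678), which passed without day 0 replicate 3 (adjusted p = 0.0192) or without day 7 replicate 2 (adjusted p = 0.0419). Both emilins tested, glycoproteins at the border of elastin and microfibrils, were higher, Emilin2 by 0.88 (SE 0.18). In the ADAMTS and ADAMTS-like group 2 of 7 were higher and 1 lower, with Adamts17 at 2.38 (SE 0.20) and Adamtsl3 at -2.09 (SE 0.15) on the log2 scale. Adamtsl3 went from 67.6 ± 4.96 to 23.0 ± 0.799 and 15.9 ± 1.94 RPKM (SD, n = 3). The proteoglycan gene Vcan, which binds fibrillin, fell by 1.53 on the log2 scale (SE 0.16), 1 of 4 in its group, and Furin, which trims profibrillin, did not pass.

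On the receptor side, 2 of 7 integrin genes were lower, most Itgav (log2 fold change -0.96, SE 0.16), whose product binds fibrillin and fibulins, and 0 were higher. In the elastin receptor complex 2 of 3 were higher, Neu1 by 0.52 (SE 0.17; limma adjusted p = 0.0140), a call lost without day 7 replicate 1 (adjusted p = 0.129). Among 7 proteases 3 were higher and 1 lower. Mmp12, the macrophage elastase, rose by 1.70 (SE 0.28) on the log2 scale from 0.0799 ± 0.0409 to 0.411 ± 0.109 RPKM (SD, n = 3), and at this low level the size depended on the method, from 0.65 on the RPKM values to 2.48 in DESeq2. Mmp9 fell by 0.86 (SE 0.28; limma adjusted p = 0.0136) at levels under 1 RPKM, and this call was lost in 8 of 18 alternatives, with an adjusted p of 0.0807 when day 0 replicate 2 was left out, 0.0612 for day 0 replicate 3 and 0.170 for day 7 replicate 1. The 5 macrophage markers were all higher at day 7, summing to 5.04 to 8.56 RPKM at day 0, 9.90 to 12.1 at day 4 and 10.9 to 13.6 at day 7, and their part in the protease levels was not tested. The plot by role shows that the largest rise was in the cross-linking group.

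**Figure D5:**
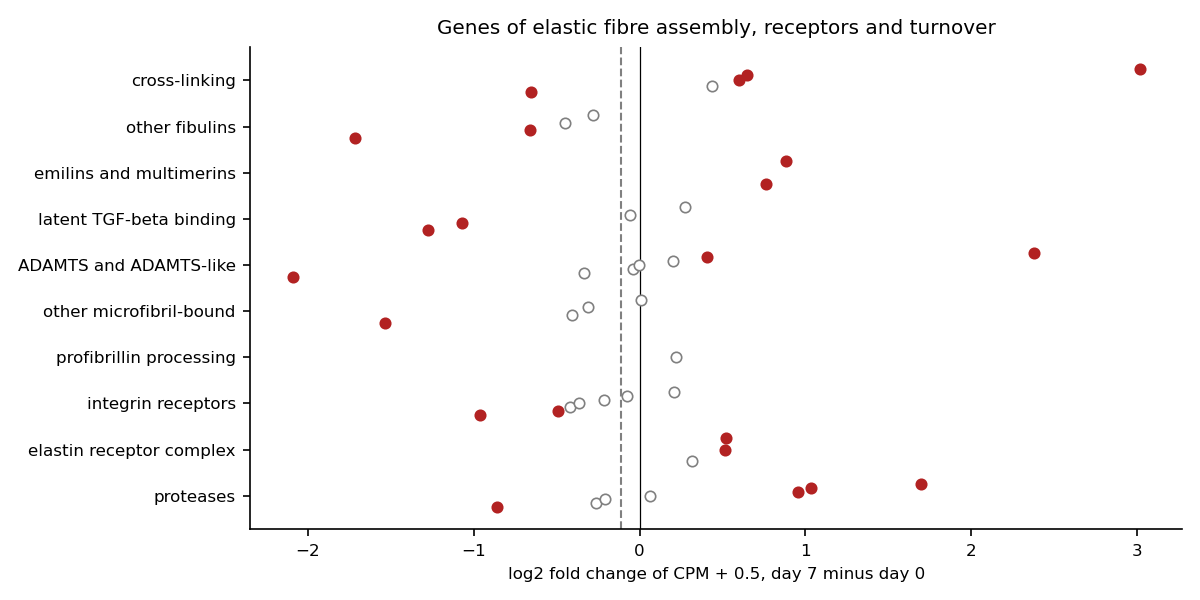
Log2 fold change of CPM + 0.5 from day 0 to day 7 (horizontal axis) of the 44 genes tested among the cross-linking, microfibril, receptor and protease genes, grouped by role; filled red points passed an adjusted p of 0.05 and open points did not. The dashed line is the median of all genes tested, -0.11, and Loxl4 lies farthest right at 3.02.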

How the data were processed

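RNA of 9 libraries of calvarial cells, 3 each at days 0, 4 and 7, was measured. Per the labels and the methods, the authors depleted ribosomal RNA (Ribo-Zero Gold), mapped reads to GRCm38 (STAR 2.0.4b) and let featureCounts count, for each gene, reads with 1 unambiguous place. The authors deposited CPM, the reads of a gene scaled to the library's total, and the deposited RPKM values divide these also by gene length. Strand use in counting is not given in the sources used here. Of 18 columns of values, 0 matched no sample. In every library 100% of CPM were whole multiples of 1 read (tolerance 0.05 reads), so reads were recovered. Repeated lines of a gene were used once, and genes were joined by Ensembl identifier.

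For the test of day 7 against day 0, log2(CPM + 0.5) of the 12712 genes averaging at least 1 CPM entered limma-trend (limma 3.58.1, R 4.3.3), and Benjamini-Hochberg adjusted p of at most 0.05 were called. This filter removed 11075 further genes that had reads. With 4 residual and 42.9 prior degrees of freedom, the p-values draw mainly on the trend across genes. Day 4 lies in tables of its own and entered no test. Ratios used RPKM with a pseudocount of 0.01 and exact permutation tests in SciPy 1.17.1. No libraries of day 0 or day 7 were duplicates, since their chi-square statistics divided by degrees of freedom lay between 13.2 and 231. Gene models came from GENCODE M21 (GRCm38), in which at most 0.1% of the stretches of 50 bases of a member occur in another gene, and promoters from RefSeq (GRCm38.p6). Scripts were tested on simulated data. The alternatives were other pseudocounts and filters, the RPKM values, median-of-ratios scaling, a robust trend, edgeR 4.0.16, DESeq2 1.42.0 and voomWithQualityWeights on recovered reads, a replicate block and leaving out each library. After seeing the data, rescaling without Gm42418, Lars2 and Mir6236 and leaving out day 0 replicate 3 and day 7 replicate 2 together were added.

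The members and gene lists were chosen with earlier results of these data known. All members are named. Of the 52 related genes, named are those that rose or fell most, among called genes, in each role group, and Lox, Loxl1, Efemp1 and Ltbp2 to Ltbp4 whatever their values. Ltbp1 and Furin were named after their values were seen. Adipocyte and skeletal muscle markers summed to at most 4.39 and 1.08 RPKM in any library.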

Additional observations from a re-analysis of the deposited data

How the results depend on the processing

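The 7 calls among the members (2 higher, 5 lower) were made in all 19 alternatives, and the 4 ratios kept their direction in the 10 alternatives run for them (pseudocounts, CPM, the block and each library left out). Genes without a call turned sign. Mfap4 had a log2 fold change of 0.088 with median-of-ratios scaling, 0.088 with edgeR, 0.087 with DESeq2, 0.050 with voomWithQualityWeights, 0.095 without day 0 replicate 3 and day 7 replicate 2. With a library left out it ranged from -0.16 to 0.13, positive without replicate 2 of either stage. Efemp2 had -0.047 rescaled without Gm42418, Lars2 and Mir6236, and -0.0042 without day 0 replicate 3 and day 7 replicate 2, and ranged from -0.097 to 0.094 with a library left out, negative without day 0 replicate 3 or day 7 replicate 1. Mfap5 ranged from -0.61 to 0.30 with a library left out, the latter without day 0 replicate 2, and had -0.72 with voomWithQualityWeights and -0.89 without day 0 replicate 3 and day 7 replicate 2. Efemp2 was the 1 member with a higher mean at day 7 than at day 4, and leaving out a library gave 0 to 1, with 0 without day 7 replicate 1. Genes higher at day 4 than day 0 by their means numbered 4, or 3 to 5 with a library left out.

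Over all genes, 1602 higher calls became 2827 with median-of-ratios scaling, 2818 with edgeR, 2581 with DESeq2 and 3148 with voomWithQualityWeights, and ranged from 1174 to 1603 with a library left out. The 2369 lower calls became 4291 after rescaling and 4232 without day 0 replicate 3 and day 7 replicate 2, and ranged from 1527 (without day 0 replicate 2) to 4696 (without day 0 replicate 3), with 1548 without day 7 replicate 2. In the related genes 10 lower calls became 18 after rescaling and ranged from 8 to 16, with 16 without day 0 replicate 3. Their 12 higher calls became 17 with median-of-ratios scaling, 17 with edgeR and 17 with DESeq2, beside 8, 8 and 10 lower. With voomWithQualityWeights they were 16 higher and 12 lower. The higher direction held 40.3% of calls, 51.4% to 52.6% with the count models and median-of-ratios scaling, and 29.1% after rescaling. The cause of these shifts was not tested.

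Same-numbered libraries of day 0 and day 7, the stages tested, did not deviate together over all genes (correlations of -0.017, -0.181 and -0.444). The highest correlation, 0.356, joined day 0 replicate 3 and day 7 replicate 2, the libraries that stood apart. With so few libraries and these among them, the check cannot decide whether the numbers pair, and the main test used no pairs. At each stage Mfap5 was highest in replicate 2 and the summed chondrocyte markers in replicate 1. Day 4 was not part of the check. With the replicate block, 1463 genes were higher and 1950 lower, and 2 and 5 members. Depth limits Mfap2, Mfap5 and Eln at day 0 most, with as few as 63, 27 and 92 reads.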
